A study of Mus musculus with 4 samples.

Results

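The genes of the RNA polymerase I (Pol I) transcription machinery were examined in F123-ESCs, an F1 hybrid mouse embryonic stem cell line whose autosomes are S129 on the maternal side and CAST on the paternal side. The 10 members were chosen by symbol, from 24026 genes in the deposited RNAseq values. They are the Pol I subunits Polr1a, Polr1b, Polr1c and Polr1e, the initiation factors Rrn3 and Ubtf, the promoter selectivity factor subunits Taf1b, Taf1c and Taf1d, and the termination factor Ttf1. All 4 libraries, replicates 1 to 4, came from untreated male F123-ESCs of an S129/Jae by Cast cross. The cells were grown on inactivated embryonic fibroblasts with LIF, then kept for at least 2 passages without feeders, and harvested after about 48 h. The series has 1 group and 1 cell line, so the comparisons are those between genes, between alleles and between libraries. The labels do not say whether the libraries came from separate cultures, and all p-values measure only the spread between these libraries, which may be technical.

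Pol I transcribes the repeated ribosomal RNA (rRNA) genes in the nucleolus, and its product is cut into the large RNAs of the ribosome. UBF, the protein of Ubtf, binds along the rRNA genes. The selectivity factor SL1, also called TIF-IB in the mouse, recognises their promoter. Pol I joins them only when it carries Rrn3, also called TIF-IA, through which growth and nutrient signals reach rRNA synthesis. Embryonic stem cells divide fast and are known for high rRNA synthesis.

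Each value is an RPKM, that is, a read count divided by gene length and by the total of reads, of 1 allele in 1 library. Only reads over a SNP between S129 and CAST could be assigned to an allele, so levels of different genes also depend on how many SNPs each gene holds. Assigned reads ranged from 34120416 in replicate 4 to 56627972 in replicate 1. The lowest value of any member stood on 269 reads. Intervals given for single values cover counting error only. All 5 markers of pluripotent cells were above 1 RPKM, between 29.5 and 512 RPKM. Of 5 feeder fibroblast markers, 4 were above 1 RPKM and none was at 0, and the summed level was 162.5 to 207.7 RPKM per library. Most of this sum was the collagen gene Col1a2 at 165.8 RPKM, computed by the authors with a length of 850 bp. It was 26.3 RPKM with the length of the longest coding transcript, 5348 bp. Of 4 primitive endoderm markers, 3 were above 1 RPKM, the highest at 3.31 RPKM. The part of other cells in the members' values was not tested, and in bulk RNA fewer cells of a type and less RNA per cell cannot be told apart.

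The promoters of the 5 members with the largest allele differences as measured are shown first, so that the values can be read beside the sequence in front of each gene. Each line gives the 250 bases upstream of the RefSeq start in the sense of the gene, from the GRCm38.p6 reference. The reference strain is C57BL/6J, so that the sequences show neither the S129 nor the CAST allele. Capitals mark the motifs searched on both strands: the E-box CACGTG, the CCAAT box CCAAT, the GC box GGGCGG, the ETS motif CCGGAAG and the TATA box TATAAA. No motif in the lines overlaps another.
Rrn3, chr16:13780449-13780698, plus strand: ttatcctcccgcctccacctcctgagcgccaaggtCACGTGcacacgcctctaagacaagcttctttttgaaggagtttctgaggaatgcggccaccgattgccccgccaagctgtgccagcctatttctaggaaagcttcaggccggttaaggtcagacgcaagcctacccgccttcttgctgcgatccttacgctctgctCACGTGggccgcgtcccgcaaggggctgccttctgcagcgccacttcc
Ttf1, chr2:29060013-29060262, plus strand: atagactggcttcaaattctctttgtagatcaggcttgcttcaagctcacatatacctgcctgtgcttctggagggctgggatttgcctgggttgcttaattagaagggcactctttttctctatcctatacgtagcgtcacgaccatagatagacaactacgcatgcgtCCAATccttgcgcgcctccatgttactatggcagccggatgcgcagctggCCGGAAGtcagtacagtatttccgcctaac
Polr1e, chr4:45018359-45018608, plus strand: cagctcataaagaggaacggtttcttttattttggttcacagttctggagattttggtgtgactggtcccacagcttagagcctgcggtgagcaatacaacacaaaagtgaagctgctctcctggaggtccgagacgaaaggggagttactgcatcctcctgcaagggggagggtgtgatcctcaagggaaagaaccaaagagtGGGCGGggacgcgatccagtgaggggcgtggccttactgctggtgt
Polr1b, chr2:129100746-129100995, plus strand: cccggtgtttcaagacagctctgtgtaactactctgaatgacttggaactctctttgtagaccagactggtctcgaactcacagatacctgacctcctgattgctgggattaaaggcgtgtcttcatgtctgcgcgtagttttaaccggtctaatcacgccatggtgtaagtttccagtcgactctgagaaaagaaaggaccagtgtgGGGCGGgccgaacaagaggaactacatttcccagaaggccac
Taf1d, chr9:15305964-15306213, plus strand: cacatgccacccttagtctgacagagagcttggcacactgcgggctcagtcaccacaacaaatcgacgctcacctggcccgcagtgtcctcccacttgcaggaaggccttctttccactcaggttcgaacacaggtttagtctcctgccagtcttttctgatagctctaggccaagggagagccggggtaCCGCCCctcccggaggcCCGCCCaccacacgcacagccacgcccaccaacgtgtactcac

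Rrn3 had 2 E-boxes, the motif that Myc with Max and other bHLH factors can bind, beginning at -215 and -48 from the start. It was the only member with this motif, which 6.02% of the 32851 promoter windows of the same length held. Ttf1 had a CCAAT box at -80 and an ETS motif at -30. Polr1b had a GC box at -42, Polr1e had one at -46 and Taf1d had GC boxes on the opposite strand at -60 and -43. Over all members, 6 of 10 windows held a GC box, against 32.7% of all windows. A CCAAT box was in 3 of 10, against 33.8%, and an ETS motif in 3 of 10, against 6.91%. The TATA box was in 0 of 10, against 12.4% of all windows. These matches are a description of the letters in the window.

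The members spanned a wide range of levels, from 273.9 RPKM for Taf1d to 5.26 RPKM for Taf1c, as means of both alleles. Their median was 30.6 RPKM, while the median of the 13341 genes tested was 7.79 RPKM. All 10 passed the filter for testing, a sum of S129 and CAST of at least 1 RPKM on average. Taf1d was above 97.3% of the genes tested, Rrn3 above 93.9% and Polr1c above 91.5%. Taf1c, the lowest, was above 41.1%.

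**Figure D1:**
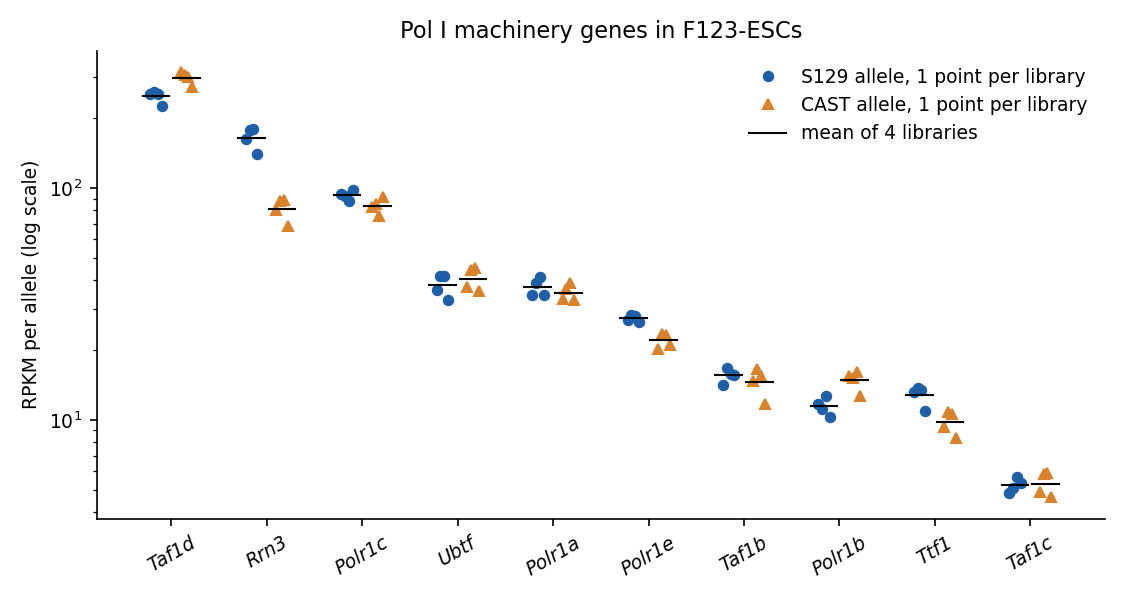
RPKM of each allele (log axis) for the 10 members, ordered by level, with 1 point for each of the 4 libraries and a line at their mean. Taf1d and Rrn3 stand highest and Taf1c lowest, and S129 lies far above CAST for Rrn3.

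Among the enzyme's own subunits, Polr1c was the highest at 88.5 ± 5.44 RPKM (SD, n = 4 libraries). It encodes a subunit of the assembly platform that Pol I shares with Pol III (ENSMUSG00000067148, chr17:46243920-46248054, minus strand). Polr1a, the largest subunit, which forms the catalytic centre together with Polr1b, was at 36.4 ± 3.19 RPKM (SD, n = 4). Polr1e, a subunit particular to Pol I that aids initiation and elongation, was at 24.7 ± 1.25 RPKM (SD, n = 4). Polr1b, the second largest subunit, was at 13.2 ± 1.23 RPKM (SD, n = 4). On these values Polr1a was at 2.77 ± 0.193 times Polr1b (SD, n = 4).

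The ratio of Polr1a to Polr1b rested on the gene length in the RPKM. The reads behind the values gave a length of 3394 bp for Polr1a, that of a transcript with 21 exons which GENCODE M21 annotates as subject to nonsense-mediated decay. Its coding transcript has 34 exons and 9216 bp. With that length Polr1a came to 13.4 ± 1.18 RPKM (SD, n = 4) and the ratio to Polr1b was 1.02 ± 0.0712 (SD, n = 4). With all annotated exons together the ratio was 1.15 ± 0.0803 (SD, n = 4). For Polr1b, Polr1c, Polr1e, Ubtf, Taf1b, Taf1d and Ttf1 the length was that of the longest coding transcript itself.

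Of the initiation factors, Rrn3 stood at 123.1 ± 13.8 RPKM (SD, n = 4) and Ubtf at 39.4 ± 4.46 RPKM (SD, n = 4). Rrn3 was thus 3.12 ± 0.122 times Ubtf (SD, n = 4), and between 3.02 and 3.30 times in every library. The alleles differed in this ratio, which was 4.32 ± 0.117 on S129 and 2.01 ± 0.102 on CAST (SD, n = 4). With the length of all annotated exons the ratio was 3.64 ± 0.142 (SD, n = 4). The length for Rrn3, 3597 bp, was found by a search over lengths and matched no annotated transcript. A multiple of this length would also give whole reads, so the reads given for Rrn3 are the fewest possible. The annotated coding transcript has 18 exons and 3582 bp.

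The subunits of SL1 differed most. Taf1d was at 273.9 ± 16.7 RPKM (SD, n = 4), Taf1b at 15.1 ± 1.32 RPKM (SD, n = 4) and Taf1c at 5.26 ± 0.422 RPKM (SD, n = 4). All are TBP-associated factors of 1 complex, and Taf1b is related to the general factor TFIIB. Taf1d was 18.2 ± 1.19 times Taf1b and 52.2 ± 4.66 times Taf1c (SD, n = 4). The Taf1d length was 1148 bp, from a coding transcript of 7 exons, while all its annotated exons cover 8949 bp. With the latter, Taf1d came to 35.1 ± 2.14 RPKM and was 2.78 ± 0.182 times Taf1b and 6.73 ± 0.601 times Taf1c (SD, n = 4). Within the range of Taf1d the annotation holds 8 snoRNA and 2 miRNA genes on the same strand, of which the snoRNA Gm25500 was at 32.7 RPKM. How many reads of Taf1d fall on these exons was not tested. Taf1b was 2.86 ± 0.164 times Taf1c as deposited, and between 2.42 and 2.86 times in the mean with any of the lengths. The Taf1c length of 3474 bp was that of a transcript with a retained intron, close to its coding transcript of 3236 bp.

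Ttf1, whose protein binds the terminators behind the rRNA genes and stops Pol I, was at 11.3 ± 1.2 RPKM (SD, n = 4).

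**Figure D2:**
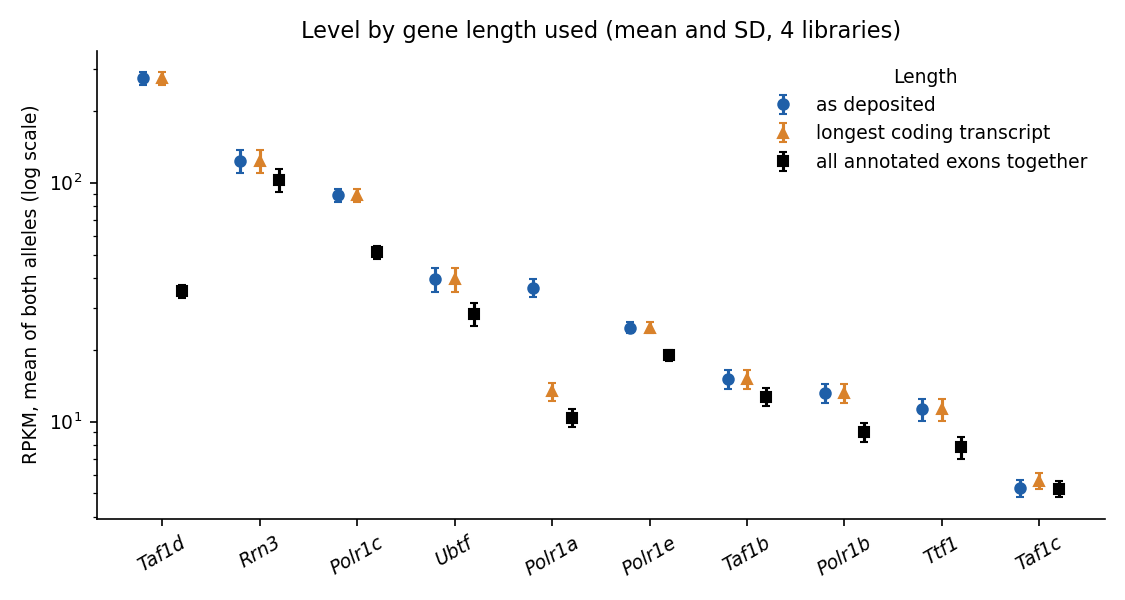
Mean and SD over 4 libraries of the RPKM of both alleles (log axis) with the length in the deposited values, that of the longest coding transcript and that of all annotated exons. Polr1a falls from 36.4 to 13.4 RPKM with its coding transcript, and Taf1d from 273.9 to 35.1 RPKM with all exons.

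In the order of deposited levels, neighbours were compared within libraries by the two-sided exact sign-flip permutation test. All 9 pairs had the same direction in 4 of 4 libraries, and the exact permutation p was 0.125 for each, the smallest that 4 libraries allow (0.125 after Benjamini-Hochberg adjustment over the 9 pairs). No pair can thus pass a threshold of 0.05. The ranges over libraries overlapped for Ubtf and Polr1a, for Taf1b and Polr1b and for Polr1b and Ttf1, and were apart for the 6 other pairs. With the length of all annotated exons Rrn3 was the highest member, Polr1c the next and Taf1d the third.

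The alleles were then compared within each library, as the difference of log2(RPKM+0.1), S129 minus CAST, by limma across all 13341 genes. A difference with an adjusted p under 0.05 was called. Of the members, 4 were higher on S129 (Rrn3, Ttf1, Polr1e and Polr1c), against 31.4% of all genes, and 2 were higher on CAST (Polr1b and Taf1d), against 31.3% of all genes. Together 60% of the members were called, near the 62.7% of all genes. All 10 members are autosomal, while these shares include X-linked genes. Of the 12869 autosomal genes tested, 3721 were called higher on S129 and 4180 on CAST. The median size of the difference was 0.21 for the members and 0.31 for all genes tested. When each column was divided by its sum over autosomal genes, the median of all genes moved from -0.0034 to 0.10, and calls over all genes went from 4187 on S129 and 4182 on CAST to 5134 and 3070. The 6 called members kept their directions, Polr1a was called higher on S129 and Ubtf turned from -0.09 to 0.01. With autosomal reads as the total, the median of all genes was 0.04. Of the X-linked reads, only 0.11% to 0.13% were assigned to CAST.

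Rrn3 (ENSMUSG00000022682, chr16:13780708-13814839, plus strand) had the largest allele difference of the members as measured, though not relative to the genes around it. Its S129 values were 163.1, 177.1, 179.0 and 139.5 RPKM in replicates 1 to 4, and its CAST values 80.4, 88.0, 88.9 and 68.5 RPKM. Every S129 value lay above every CAST value, while both alleles were lowest in replicate 4. The difference was 1.02 ± 0.03 on the log2 scale (SE, n = 4, limma adjusted p = 3.1e-05), or 2.02-fold, and higher on S129 in 4 of 4 libraries. The S129 share of the reads was 67.7% over all libraries (95% exact Clopper-Pearson interval 67.4 to 68.0, on the fewest possible reads), and 67.7% to 68.0% in each library.

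The genes around Rrn3 were also higher on S129. Of 93 other tested genes that start within 5 Mb, 85 had a difference above 0, and their median was 0.81 as a mean over libraries. Rrn3 lay above this median by 0.20 ± 0.03 (SE, n = 4, limma adjusted p = 0.0074, with the neighbour median taken out for all genes). Of the neighbours, 24 had a larger difference than Rrn3 and 69 a smaller one. With the neighbour median taken out, Ttf1, Polr1e, Polr1b, Taf1d, Polr1c and Taf1c had larger differences in size than Rrn3, though the differences between members were not tested. The shift was not limited to this region. Of 413 genes tested on chromosome 16, 339 were above 0, with a median of 0.69. With the chromosome median taken out, Rrn3 was at 0.34 (limma adjusted p = 0.0010), below Ttf1 at 0.41 and the size of Polr1b at -0.35. The cause of the difference over the chromosome was not tested.

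Ttf1 (ENSMUSG00000026803, chr2:29060262-29087656, plus strand) was higher on S129 with values of 13.2, 13.8, 13.5 and 10.9 RPKM, against 9.28, 10.8, 10.6 and 8.36 RPKM on CAST. The alleles did not overlap, although S129 in replicate 4 was close to the highest CAST values. The difference was 0.39 ± 0.04 (SE, n = 4, limma adjusted p = 0.0016), in 4 of 4 libraries. Its 154 neighbours had a median of -0.01, so that it stood 0.41 ± 0.05 above them (SE, limma adjusted p = 0.0021).

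Polr1e (ENSMUSG00000028318, chr4:45018583-45036565, plus strand) had S129 values of 26.9, 28.3, 28.2 and 26.4 RPKM and CAST values of 20.3, 23.5, 23.3 and 21.1 RPKM. The lowest S129 value was above the highest CAST value. The difference was 0.32 ± 0.04 (SE, n = 4, limma adjusted p = 0.0025), and 0.39 ± 0.04 above the median of 92 neighbours (SE, limma adjusted p = 0.0020). On the other strand its range overlaps that of Fbxo10, which was at 1.75 RPKM. The libraries were stranded, but whether counting used the strand is not given in the sources used here, so that reads of such pairs may not be told apart.

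Polr1c had S129 values of 94.5, 92.3, 87.6 and 98.0 RPKM and CAST values of 83.1, 85.2, 75.5 and 91.7 RPKM. The alleles overlapped between libraries, but S129 was the higher one within each. The difference was 0.15 ± 0.04 (SE, n = 4, limma adjusted p = 0.022). The call was lost without replicate 1, 2 or 3 (limma adjusted p = 0.081, 0.063 and 0.085), and in a fit without the pairing by library (no replicate block, adjusted p = 0.16). Its 83 neighbours had a median of -0.14, and the difference above them was 0.29 ± 0.04 (SE, n = 4, limma adjusted p = 0.0037).

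Polr1b (ENSMUSG00000027395, chr2:129100995-129126594, plus strand) was higher on CAST. Its S129 values were 11.7, 11.2, 12.6 and 10.3 RPKM and its CAST values 15.4, 15.2, 16.1 and 12.6 RPKM. The CAST value of replicate 4 was just below the S129 value of replicate 3, so that the alleles overlapped by this pair alone. The difference was -0.37 ± 0.04 (SE, n = 4, limma adjusted p = 0.0017) and -0.35 ± 0.04 against the median of 92 neighbours (SE, limma adjusted p = 0.0027). Polr1a, its partner, had no called difference, as given below.

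Taf1d (ENSMUSG00000031939, chr9:15306214-15316991, plus strand) had S129 values of 255.4, 259.8, 253.9 and 225.4 RPKM and CAST values of 316.2, 306.1, 301.0 and 273.6 RPKM. All CAST values lay above all S129 values. The difference was -0.27 ± 0.03 (SE, n = 4, limma adjusted p = 0.0023) and -0.31 ± 0.06 against the median of 24 neighbours (SE, limma adjusted p = 0.014). Cep295, on the other strand within its range, was at 22.7 RPKM and 4931406C07Rik at 6.72 RPKM.

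**Figure D3:**
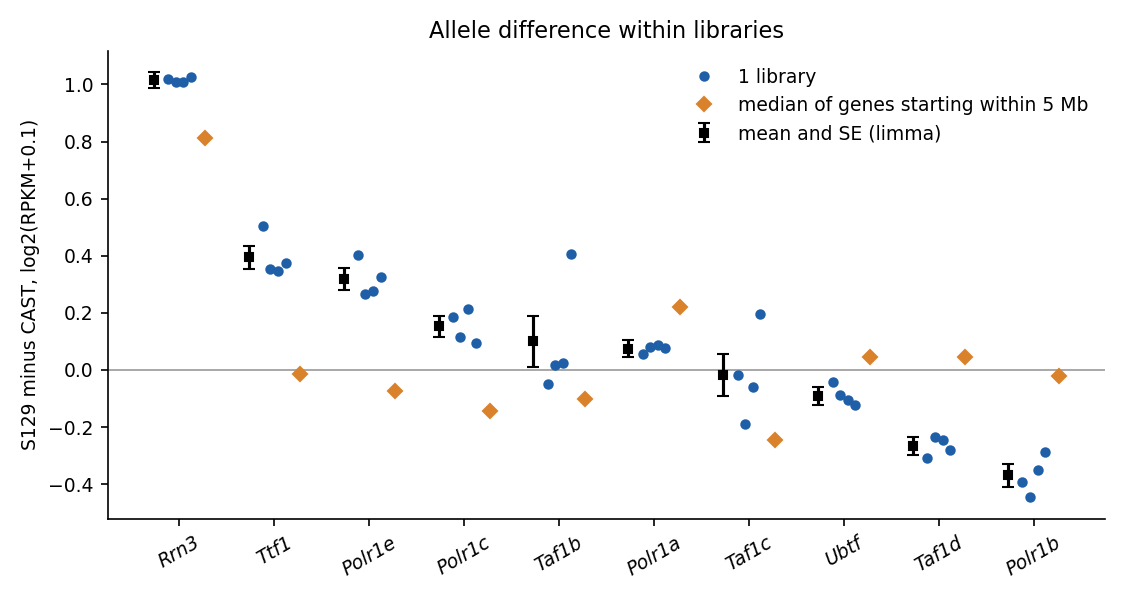
S129 minus CAST on the log2(RPKM+0.1) scale for each member, with 1 point per library, the limma mean with its SE and the median of the tested genes starting within 5 Mb, averaged over libraries. Rrn3 lies near 1.02 and the median of its neighbours at 0.81, while the neighbours of Ttf1 and Polr1b lie near 0.

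The 4 other members were not called. Polr1a (ENSMUSG00000049553, chr6:71909053-71984935, plus strand) had S129 values of 34.5, 38.7, 41.5 and 34.5 RPKM and CAST values of 33.2, 36.6, 39.0 and 32.7 RPKM. S129 was the higher allele in 4 of 4 libraries, by 0.07 ± 0.03 (SE, n = 4, limma adjusted p = 0.081). Its 41 neighbours had a median of 0.22, from which Polr1a stood -0.14 ± 0.04 towards CAST (SE, limma adjusted p = 0.025), with S129 still its higher allele. Of these neighbours, 14 had a smaller difference than Polr1a and 27 a larger one. Over chromosome 6, 442 of 636 genes tested were above 0, with a median of 0.19.

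Ubtf (ENSMUSG00000020923, chr11:102304560-102319742, minus strand) had S129 values of 36.3, 41.6, 41.9 and 33.0 RPKM and CAST values of 37.4, 44.2, 45.1 and 35.9 RPKM. In RPKM, CAST was the higher allele in 4 of 4 libraries, with a difference of -0.09 ± 0.03 (SE, n = 4, limma adjusted p = 0.065). The S129 share of the reads was 49.5% over all libraries, from 48.9% in replicate 4 to 50.1% in replicate 1. With autosomal reads as the total, the difference was -0.04 (limma adjusted p = 0.30). Against the median of 183 neighbours, Ubtf was at -0.14 ± 0.03 (SE, limma adjusted p = 0.027). Of these neighbours, 62 had a smaller difference than Ubtf and 121 a larger one.

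Taf1c (ENSMUSG00000031832, chr8:119597871-119605222, minus strand) had S129 values of 4.82, 5.09, 5.64 and 5.33 RPKM and CAST values of 4.89, 5.82, 5.89 and 4.63 RPKM. The alleles crossed between libraries, and the difference was -0.02 ± 0.07 (SE, n = 4, limma adjusted p = 0.84). Its 89 neighbours leaned to CAST with a median of -0.25, against which Taf1c stood 0.23 ± 0.07 towards S129 (SE, limma adjusted p = 0.042). Dnaaf1, on the other strand within its range, was at 0.532 RPKM.

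Taf1b (ENSMUSG00000059669, chr12:24498359-24558539, plus strand) had S129 values of 14.2, 16.7, 15.8 and 15.5 RPKM and CAST values of 14.6, 16.5, 15.5 and 11.7 RPKM. In replicates 1 to 3 the alleles were close, and in replicate 4 CAST was lower. The difference was 0.10 ± 0.09 (SE, n = 4, limma adjusted p = 0.38), and -0.0015 without replicate 4. Against its 19 neighbours it was 0.20 ± 0.10 (SE, limma adjusted p = 0.15).

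With the neighbour median taken out, 5 members were thus called towards S129 and 4 towards CAST. These 9 of 10 stand beside 57.2% of all genes called in that fit. For the differences as measured, the median SE was 0.037 for the members and 0.058 for all genes. The part of this in the share called was not tested. The fit with the neighbour median taken out does not say which allele was higher. Polr1a, called towards CAST, was higher on S129 in 4 of 4 libraries, and Taf1c, called towards S129, in 1 of 4. Its p-values do not measure the spread between neighbours. Polr1a, Ubtf, Rrn3 and Taf1b lay between the lower and upper quartile of their neighbours. The alleles' values did not overlap over the 4 libraries for 4 of 10 members (Polr1e, Rrn3, Ttf1 and Taf1d), against 45.6% of all genes tested.

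**Figure D4:**
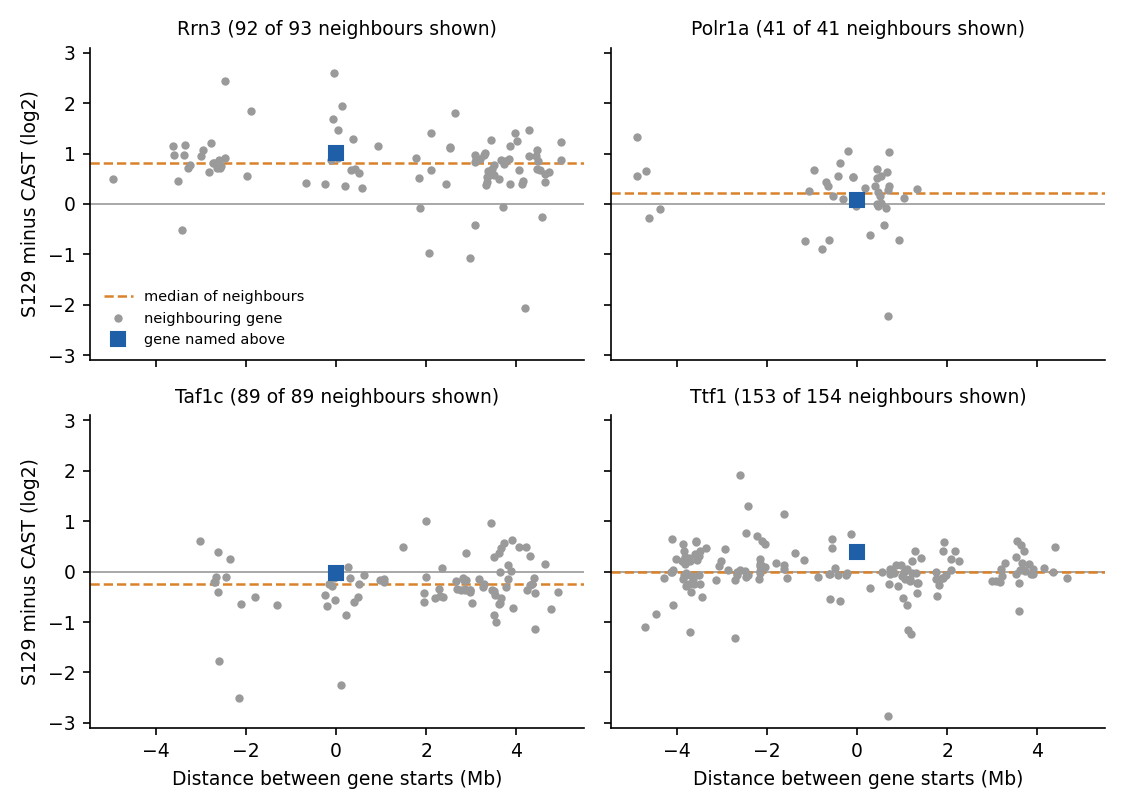
S129 minus CAST (log2) of Rrn3, Polr1a, Taf1c and Ttf1 and of the tested genes starting within 5 Mb, by distance between gene starts. The dashed line is the neighbours' median averaged over libraries. Genes around Rrn3 lie near 0.81 and those around Taf1c near -0.25, and 1 neighbour each of Rrn3 and Ttf1 lies beyond 3 and is not drawn.

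The libraries were compared by the mean of both alleles, with no test. Of the 10 members, 7 were lowest in replicate 4, where 53.5% of all genes tested were lowest. In replicates 2 and 3 together 8 members were highest, against 69.8% of all genes. The median member deviated from its own mean by 0.11 in replicate 3 and by -0.14 in replicate 4 on the log2 scale, and the median of all genes by 0.08 and -0.10. Replicate 4 was also the library with the fewest reads, and the part of depth in this was not tested. Polr1c ran the other way, with 94.8 RPKM in replicate 4 and 81.5 RPKM in replicate 3 as means of both alleles. The SD over libraries on the log2 scale had a median of 0.13 for the members and 0.14 for all genes. It ranged from 0.07 for Polr1e to 0.17 for Rrn3, an order that did not hold under other settings. Without replicate 4, Rrn3 was at 0.08 and Taf1d was lowest at 0.02. With all libraries rescaled to one sum, Polr1c was lowest at 0.06 and Polr1e was at 0.14.

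**Figure D5:**
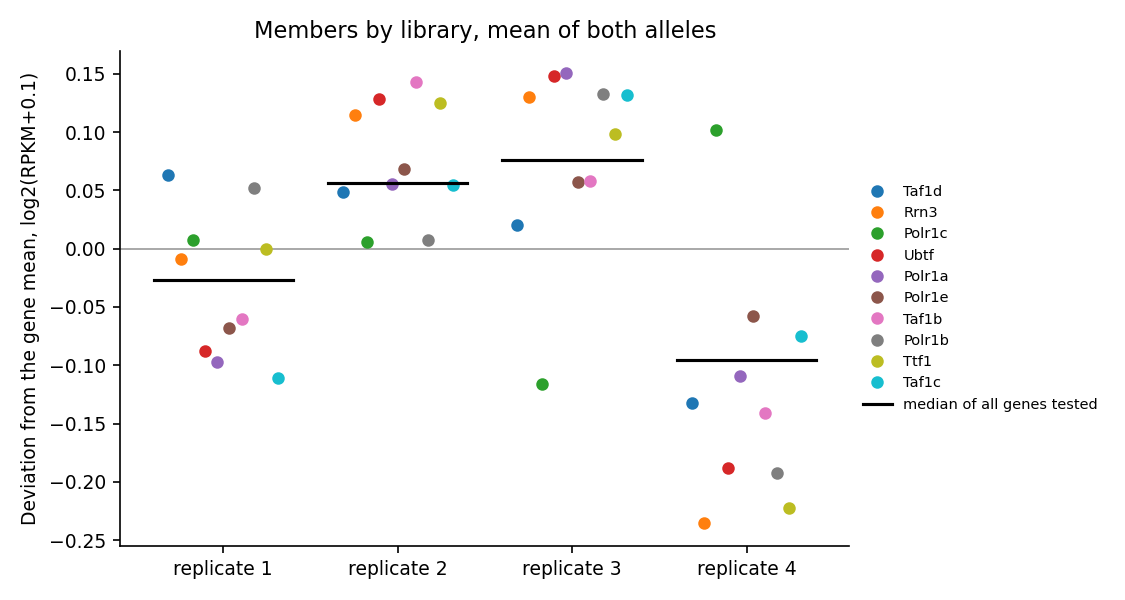
Deviation of each member from its own mean over libraries, on log2(RPKM+0.1) of both alleles' mean, by replicate. Black lines are the medians of all genes tested. In replicate 4 all members but Polr1c lie below 0, as does the median of all genes at -0.10.

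The other 9 genes that encode Pol I subunits were called in 6 cases, or 66.7%, near the 62.7% of all genes. Of those particular to Pol I or shared with Pol III only, Polr1d, the partner of Polr1c in the platform, was at 272.6 ± 17.7 RPKM (SD, n = 4). It was higher on S129 by 0.32 ± 0.04 (SE, n = 4, limma adjusted p = 0.0025). Polr1f (listed as Twistnb), Polr1g (listed as Cd3eap) and Polr1h (listed as Znrd1) had differences of -0.04, 0.05 and 0.0032 that were not called (limma adjusted p = 0.57, 0.39 and 0.94). Of the subunits common to all 3 polymerases, Polr2h was higher on S129 by 1.78 ± 0.04 (SE, limma adjusted p = 1.3e-05) and Polr2e by 0.14 ± 0.03 (SE, limma adjusted p = 0.025). Polr2h lies on chromosome 16, as Rrn3 does, and its 108 neighbours had a median of 0.74. Polr2h stood above this median by 1.04 ± 0.04 (SE, limma adjusted p = 0.00013). Polr2l was higher on CAST with a difference of -1.66 ± 0.04 (SE, limma adjusted p = 1.6e-05), in 4 of 4 libraries, while its neighbours had a median of -0.03. Polr2f and Polr2k were also higher on CAST, with -0.69 and -0.33 (limma adjusted p = 0.00046 and 0.0027). With the neighbour median taken out, Polr2k was no longer called (-0.16, limma adjusted p = 0.070).

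The remaining subunits of SL1 or factors joined to it, Taf1a, Taf12 and TBP, were called in 0 of 3 cases by limma, against 62.7% of all genes. An unadjusted limma p under 0.05 was reached by 1 of 3, against 8924 of the 13341 genes tested. That was Taf1a, which was at 21.6 ± 1.36 RPKM (SD, n = 4) with a difference of -0.20 ± 0.07 (SE, n = 4, limma adjusted p = 0.071). Of the 3 members in the same complex, Taf1d was called in this fit and Taf1b and Taf1c were not.

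Of 17 genes that regulate the rRNA genes or aid their transcription and processing, 5 were called higher on S129 and 6 on CAST, together 64.7% against 62.7% of all genes. The 2 largest towards S129, Phf8 and Suv39h1, are X-linked, and a male line has only the maternal S129 X chromosome. Of the 15 autosomal genes, 3 were called higher on S129 and 6 on CAST, together 60%. Kdm2b, a histone demethylase, was the largest towards CAST with -0.61 ± 0.06 (SE, n = 4, limma adjusted p = 0.0010). Smarca5, the ATPase of the nucleolar remodelling complex NoRC, had -0.27 ± 0.06 (SE, n = 4, limma adjusted p = 0.018), but was not called with the neighbour median taken out (-0.13, limma adjusted p = 0.17). Of 9 tested subunits particular to Pol III, 3 were higher on S129, up to 0.72 for Crcp, and 3 on CAST, down to -0.34 for Polr3k, together 66.7%. Of 7 tested subunits particular to Pol II, 2 were higher on S129, up to 0.38 for Polr2b, and 1 on CAST, Polr2a with -0.27, together 42.9%. The share of all genes called was 62.7%, as above.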

How the data were processed

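RNAseq of polyA-enriched RNA from 4 libraries of untreated F123-ESCs was used, with paired reads of 150 bp. Per the labels and methods, the authors removed rRNA reads, trimmed the rest with Trimmomatic 0.40, aligned them with STAR to mm10 masked at SNPs, divided them by SNPsplit and deposited an RPKM per gene and allele. The counting program and annotation are not given in the sources used here. Deposited averages and their log10 were not used.

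Genes were matched by identifier to GENCODE M21 (mm10), 23995 of 24026. Read totals and gene lengths were recovered from the steps between values. Within 0.02 reads, 94.5% of genes above 0 came out whole, and Rrn3 needed a search over lengths. Alleles were compared on log2(RPKM+0.1), on which differences of low values are understated, by limma 3.58.1 in R 4.3.3 with an intercept on within-library differences and Benjamini-Hochberg adjustment. Both alleles come from the same library, and this is the pairing. The S129 column taken as replicate 1 has its number written with a minus sign, and was the only S129 column left for that library. Over 10915 genes, deviations of alleles correlated at 0.15 to 0.28 within libraries and at -0.25 to 0.22 between them. These ranges overlap, so that the correlations alone do not settle the pairing. The read totals of the columns fell from replicate 1 to replicate 4 in the same order on both alleles. They went from 28772351 to 17403695 on S129 and from 27855621 to 16716721 on CAST. The neighbour fit subtracted the median of other tested genes starting within 5 Mb, where there were at least 5. Shares have exact Clopper-Pearson intervals. Promoter windows are from RefSeq, in which all 10 members matched. Of several RefSeq starts, as the 6 of Ubtf, the one nearest to the GENCODE start was used. It lay 222 bases from the GENCODE start for Taf1b, 150 for Ubtf and at most 26 for the others. The Taf1b window lies mostly inside the gene as GENCODE annotates it. Simulated data with known answers were used to test limma and Dixon's criterion.

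The members, the gene lists and the tests were chosen with earlier results of these data known. All members and all genes of the lists of other Pol I and SL1 subunits are named, and of the other lists up to 2 called genes in each direction. Alternatives were another pseudocount, filter or scaling, a variance trend, no replicate block, each library left out, each allele alone and other gene lengths. Totals of autosomal reads, coding lengths, ratios of members on each allele and reads added over libraries were added after seeing the data.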

Additional observations from a re-analysis of the deposited data

Results flagged for a closer look

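Taf1b had 1 library apart from the others in its allele difference. In replicate 4, S129 exceeded CAST by 0.41 on the log2(RPKM+0.1) scale, against -0.05 to 0.03 in replicates 1 to 3. The gap was 0.837 of the range, above Dixon's 95% critical value for 4 values. The CAST value in this library, 11.7 RPKM, stood on 432 reads, and the S129 value, 15.5 RPKM, on 597 reads. The S129 share was 58.0% there (95% exact Clopper-Pearson interval 54.9 to 61.1) and 50.0%, 51.4% and 51.4% in replicates 1 to 3. Levels and allele differences of the 10 members made 20 such tests, of which chance alone gives about 1.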

How the results depend on the processing

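The allele differences of Rrn3, Ttf1, Polr1e, Polr1b and Taf1d were called in the same direction in all 14 alternatives, with Rrn3 between 0.20 (neighbour median taken out) and 1.12, and 0.34 with the chromosome median taken out. That of Polr1c was called in 9 of 14. It remained 0.15 but was not called with no filter on low values (limma adjusted p = 0.053) and with no replicate block (0.16), and it was 0.13 to 0.17 with a library left out. The fit with no replicate block changed no other call of a member. Ubtf was called at -0.0897 with a filter of 5 RPKM or a variance trend and at -0.14 with the neighbour median taken out, and turned to 0.0131 with columns divided by their autosomal sum. Polr1a was called at 0.18 with the autosomal sum, 0.0749 with the variance trend and 0.12 with autosomal reads as the total, and turned to -0.13 with the chromosome median and -0.14 with the neighbour median taken out. Taf1c turned to 0.0828, 0.22, 0.23 and 0.0275 with the autosomal sum, the chromosome median, the neighbour median and autosomal reads, and lay between -0.0900 and 0.0393 with a library left out. Taf1b lay between -0.0015 and 0.15 with a library left out, and turned only without replicate 4. The number of members called towards CAST was 4 with the neighbour median taken out, and 2 with any library left out. The cause of these changes was not tested.

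With a library left out, the other members moved little, as from 1.01 to 1.02 for Rrn3, and 3447 to 3961 genes were called on S129 and 3378 to 3946 on CAST. All 45 pairs of members kept the order of their levels with any library left out. With S129 alone 44 pairs kept it, with CAST alone 43, where Rrn3 at 81.5 RPKM was below Polr1c at 83.9 RPKM, with coding lengths 43 and with all annotated exons 41. The S129 to CAST ratio of reads, not divided by the totals, was 1.07 for Rrn3 and -0.21 for Taf1d on the log2 scale. Depth limits Taf1c most, with 269 to 498 reads per value, and no level is corrected for the number of SNPs in the gene.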
